A study of Rattus norvegicus with 3 samples.

Results

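The tissue kallikreins are secreted serine proteases of the trypsin fold, and their genes form 1 cluster in the rat genome. The family was taken as the array probes named Klk or Ngfg, or described as glandular kallikrein, which gave 21 of 41012 probes. They stand for 20 of the 15177 genes that could be named from RefSeq. Of these, 9 probes (8 genes) belong to the glandular group of Klk1 and its rodent copies, 11 probes to the other tissue kallikreins (Klk4 and Klk6 to Klk15), and 1 probe to Klkb1, which encodes plasma kallikrein and shares the name but not the cluster. The rule itself reads names and descriptions and no measured value. In the build rn4, the 20 probes of the tissue kallikreins lie on chromosome 1, between chr1:94100503 and chr1:94696397, and Klkb1 lies on chromosome 16 (chr16:50272009-50272069).

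RNA came from the submandibular, sublingual and parotid glands of male Wistar rats aged 10 weeks, with no treatment named, and was hybridised to 1 Agilent array per gland. The design text speaks of 3 rats, and the animal or animals behind each array are not given in the sources used here. With 1 array per gland there are no replicates, no test was made, and precision is limited by the number of arrays. Levels are log2 of the processed signal minus the 75th percentile of the array, so they compare 1 probe across arrays and not 1 probe with another.

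In rodent salivary glands the classical tissue kallikrein, Klk1, cuts kininogens to release kinins, peptides that widen vessels and act through G-protein-coupled receptors. The rat Klk1b and Klk1c genes are later copies of Klk1, and their products are known mainly from the granular convoluted ducts of the male submandibular gland, where androgens raise several of them. The other tissue kallikreins are older genes, best known in skin, brain, prostate and tooth enamel.

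The arrays were first set against their labels. Products of the parotid serous cells were at least 4-fold lower than on the parotid array for 9 of 9 genes compared on the submandibular-labelled array and for 9 of 9 on the sublingual array. Mucous cell products were at least 4-fold higher than on the parotid array for 5 of 6 genes on the submandibular-labelled array and 4 of 5 on the sublingual array. The mucin gene Muc5b was, on its brightest probe though not on every probe, lower than on the parotid array. That probe read 4.46-fold (submandibular-labelled) and 5.72-fold (sublingual) lower, and was well above background on the parotid array alone. The gel-forming mucin Muc19 stood at 9.80 and 9.71 on these arrays and was not well above background on the parotid array. Granular duct products other than kallikreins did not mark the array with the submandibular label: 0 of 9 genes compared were at least 4-fold higher there than on the parotid array, and 0 of 7 than on the sublingual array. Of 3 submandibular acinar products compared with the parotid array, Bpifa2f stood at 10.09, 10.07 and 6.56 on the submandibular-labelled, sublingual and parotid arrays, Csap1 at 9.91, 9.97 and 10.15, and Oprpn at -1.03, -3.31 and 4.47. Oprpn alone of these was 4-fold apart between the submandibular-labelled and sublingual arrays, 4.87-fold higher with the submandibular label. Between the same 2 arrays, the mucous product Tff3 was at least 25.3-fold higher with the submandibular label. The parotid product Dnase1 was at least 24.0-fold lower with that label. Epidermal growth factor (Egf) stood at 2.02, 1.61 and 2.62 on the submandibular-labelled, sublingual and parotid arrays. The array is called submandibular-labelled throughout, and whether its label is right was not tested. Between 52.8% and 55.3% of probes were well above background per array, the 3 arrays shared a slide and a scan, and no spot was saturated.

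The promoters of the glandular genes are shown here because some of these genes were detected and others not, while their upstream sequences are close copies. RefSeq promoters of assembly GRCr8 (300 bases, from 250 before to 50 after the annotated start) were at hand for 17 of the 20 genes. The 6 bases TTTAAA, which read the same on both strands, were found in the promoters of the 7 glandular members with a promoter, and in no promoter of the other tissue kallikreins or of Klkb1. Of all 33469 rat promoters of this length, 13.6% hold these letters. The windows below run from 100 bases before to 15 bases after those 6 bases, which are in capitals, and each is written 5′ to 3′ on the strand of its gene. The first 4 belong to genes well above background on all 3 arrays, Klk1c10 was so on the parotid array alone, and Klk1c12 on none.
Klk1b3, chr1:103845520-103845640, plus strand: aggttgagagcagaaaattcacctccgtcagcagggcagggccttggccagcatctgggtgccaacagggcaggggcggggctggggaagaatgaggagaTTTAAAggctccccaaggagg
Klk1c3, chr1:103807981-103808101, plus strand: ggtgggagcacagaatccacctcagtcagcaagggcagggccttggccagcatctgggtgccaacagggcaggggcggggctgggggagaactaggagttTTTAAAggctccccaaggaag
Klk1c8, chr1:103684151-103684271, plus strand: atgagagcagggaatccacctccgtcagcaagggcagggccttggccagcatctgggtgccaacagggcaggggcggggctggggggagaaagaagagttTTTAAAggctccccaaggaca
Klk1c6, chr1:103612373-103612493, minus strand: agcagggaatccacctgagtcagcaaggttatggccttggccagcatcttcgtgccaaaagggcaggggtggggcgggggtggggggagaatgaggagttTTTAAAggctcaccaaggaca
Klk1c10, chr1:103543643-103543763, minus strand: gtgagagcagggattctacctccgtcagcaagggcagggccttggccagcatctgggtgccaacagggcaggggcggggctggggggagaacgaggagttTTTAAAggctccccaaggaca
Klk1c12, chr1:103518725-103518845, minus strand: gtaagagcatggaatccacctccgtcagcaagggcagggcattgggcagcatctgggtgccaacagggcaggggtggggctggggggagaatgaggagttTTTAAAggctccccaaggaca

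Over these 121-base windows, Klk1c8 shared 95.9% of aligned bases with Klk1c10 and 93.4% with Klk1c12. Klk1c8 was thus closer to those genes with little or no signal than to Klk1c3 (90.2%), Klk1b3 (87.9%) or Klk1c6 (82.5%), which were bright like itself. Klk1b3 and Klk1c6 were the least alike pair of windows, at 74.4%, and both were bright on the 3 arrays. The closest pair was Klk1c6 and Klk1c2, the tonin gene, at 96.7%. The letters TGTTCT or AGAACA, a half-site of steroid receptors, were found in 20.7% of all promoters and, among the members, in that of Klk10 alone. In Klk1 itself TTTAAA lies past the annotated start, so no window is shown for it. These are matches of letters and bear on no binding.

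**Figure D1:**
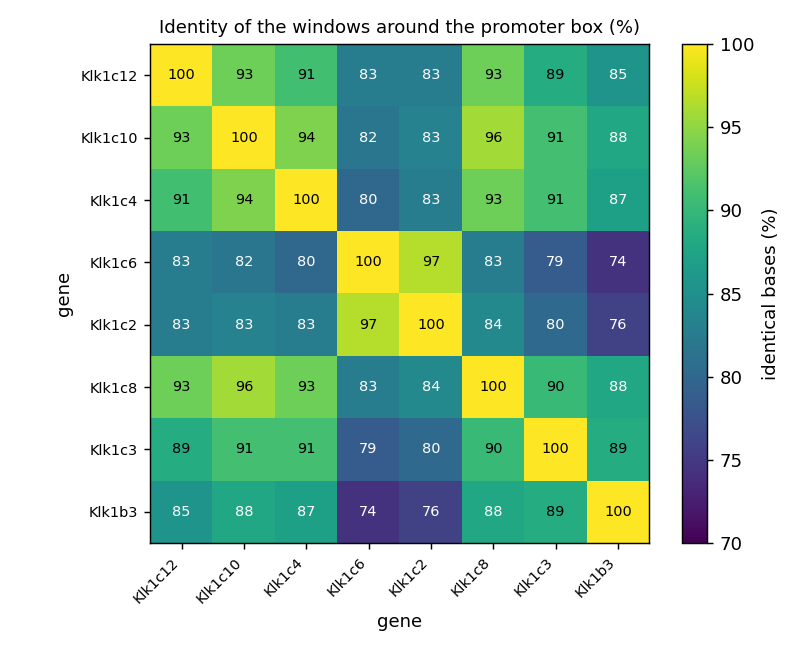
Identical bases, in percent of the aligned length, between the 121-base windows around TTTAAA in 8 glandular kallikrein promoters, including those of Klk1c2 and Klk1c4, which are not among the members. Colour and printed number give the same value, and Klk1c6 with Klk1c2 stand apart from the other genes.

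The family split by group in whether it could be measured. Of the glandular group, 6 of 9 probes, for 5 of 8 genes (Klk1, Klk1b3, Klk1c3, Klk1c6 and Klk1c8), were well above background on all 3 arrays, with signals between 1470 and 102000. Of the other tissue kallikreins, 0 of 11 probes were, and Klk9 and Klk8 were well above background on 1 or 2 arrays. Of all 40999 probes with an unflagged spot on each array, 19886 were well above background on all 3. The 9 glandular probes are too few to set against that share. Each member had 1 spot per array, and no member spot had an outlier flag. Probes of near-identical copies may cross-hybridise, and the probe sequences were not used here, so each value below is that of a probe and may hold signal from a neighbouring copy.

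**Figure D2:**
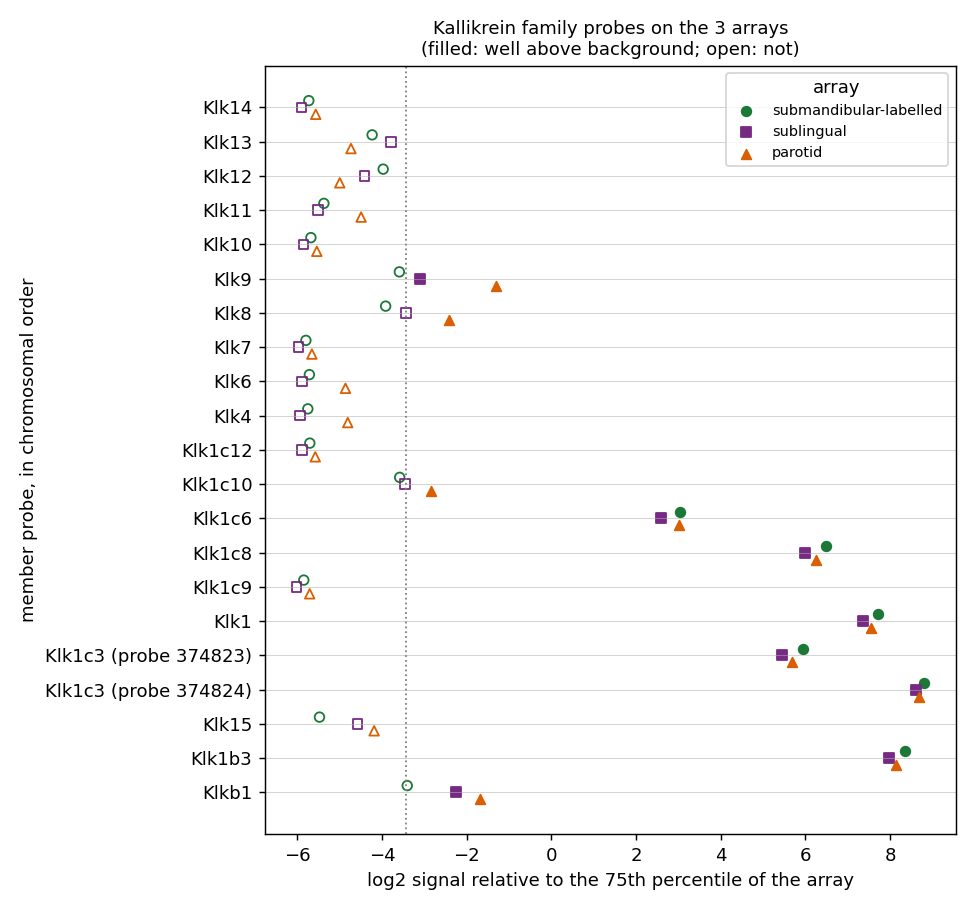
Level of each of the 21 probes on each array, on the log2 scale relative to the array's 75th percentile; the first 20 rows follow chromosome 1 and the last row is Klkb1. Filled symbols are well above background and open ones are not, and the dotted line marks -3.43, the highest of the lowest well-above-background levels of the 3 arrays. The 3 symbols of each bright glandular probe nearly overlie each other.

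Klk1, the kininogen-cleaving enzyme (named Klk7 in the deposited file; chr1:94628741-94628800), had a level of 7.72 on the submandibular-labelled array, 7.37 on the sublingual array and 7.54 on the parotid array, with processed signals of 48000, 40300 and 34700. It was bright in all glands, and the 3 levels spanned 1.27-fold. The scanner software gives each such spot an error of 0.14 on the log2 scale, hence 0.20 on a difference of 2 arrays. This error was the same share of the signal on nearly all bright member spots, so it is not a measured spread. Klk1 differed by 0.17 for submandibular-labelled minus parotid and by -0.18 for sublingual minus parotid, each within that error. Submandibular-labelled minus sublingual was 0.35, beyond 1 error and within 2.

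Klk1b3, listed in the file as Ngfg (chr1:94696242-94696397), stood at 8.35 on the submandibular-labelled array, 7.98 on the sublingual array and 8.14 on the parotid array. Its differences were 0.21, -0.17 and 0.38 for submandibular-labelled minus parotid, sublingual minus parotid and submandibular-labelled minus sublingual. The 3 levels spanned 1.30-fold, and the probe was well above background on every array.

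Klk1c3 had 2 probes, at neighbouring places in the gene. The probe at chr1:94657986-94658045 read 8.81 on the submandibular-labelled array, 8.61 on the sublingual array and 8.68 on the parotid array. The probe at chr1:94657297-94657452 read 5.94, 5.45 and 5.69 on the same arrays. Both put the arrays in the same order, but their sizes differed. Submandibular-labelled minus parotid was 0.13 and 0.25, sublingual minus parotid was -0.07 and -0.23, and submandibular-labelled minus sublingual was 0.20 and 0.49.

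Klk1c8, called Klk6_predicted in the file (chr1:94531050-94531109), had levels of 6.50, 5.999 and 6.24 on the submandibular-labelled, sublingual and parotid arrays. Its difference of 0.50 between the submandibular-labelled and sublingual arrays, a fold of 1.41, was the largest among the 6 bright probes in that pair. Klk1c6, called Gk11 in the file (chr1:94448012-94448922, minus strand), had levels of 3.04, 2.59 and 3.01. Submandibular-labelled minus parotid was 0.02, and its -0.42 for sublingual minus parotid was the only difference from the parotid array beyond 2 software errors among the 6 probes.

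All 6 probes followed the order submandibular-labelled, parotid, sublingual, but the steps were small. Submandibular-labelled minus parotid ran from 0.02 to 0.25 (folds of 1.02 to 1.19), 3 of 6 differences lay within 1 software error, and 6 of 6 within 2. Sublingual minus parotid ran from -0.42 to -0.07, at most 1.34-fold lower, with 3 of 6 within 1 error and 5 of 6 within 2. Submandibular-labelled minus sublingual ran from 0.20 to 0.50 (folds of 1.15 to 1.41), with 1 of 6 within 1 error and 3 of 6 within 2. Since the software error was nearly constant here, these counts only set the differences against a fixed size of about 0.20. Neither these errors nor the SD of repeat spots of other probes (0.12 on a difference) covers animals, dissection or labelling. In bulk tissue, fewer cells of a type and less RNA per cell cannot be told apart.

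**Figure D3:**
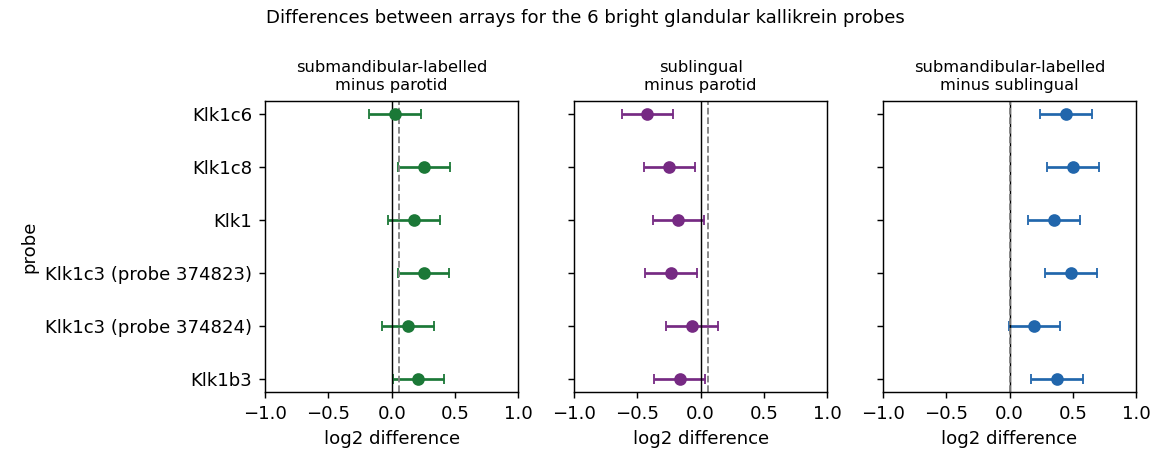
Log2 difference between arrays for the 6 glandular probes well above background on all 3 arrays; points are single differences, bars are 1 scanner software error of the difference, and the dashed line is the median difference over 19886 probes well above background on all 3 arrays. The submandibular-labelled array lies above the sublingual array for 6 of 6 probes, and most differences from the parotid array reach 0 within 2 bars.

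Set beside all probes, the members' medians were 0.19 for submandibular-labelled minus parotid (6 probes well above background on both arrays, against 0.047 over 20174 such probes), -0.24 for sublingual minus parotid (8 probes, against 0.026 over 20682) and 0.41 for submandibular-labelled minus sublingual (6 probes, against 0.0066 over 21103). The middle 50% of all probes ran from -0.47 to 0.50, from -0.49 to 0.55 and from -0.26 to 0.23 in these pairs. The 6 bright kallikrein probes lay inside the first and second of these ranges, and 5 of 6 lay above the third. The place of the sublingual array relative to the parotid array depends on scaling: for 5 of the 6 probes the processed signal before scaling was higher on the sublingual array, after median centring 4 of 6 differences were positive, and with normexp background correction 1 of 6 was. Klk1c6 read -0.25 for submandibular-labelled minus parotid after quantile normalization, and -0.03 relative to the median shift of all probes. The submandibular-labelled array exceeded the sublingual array for every bright probe in every setting run, by 0.18 to 0.75.

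**Figure D4:**
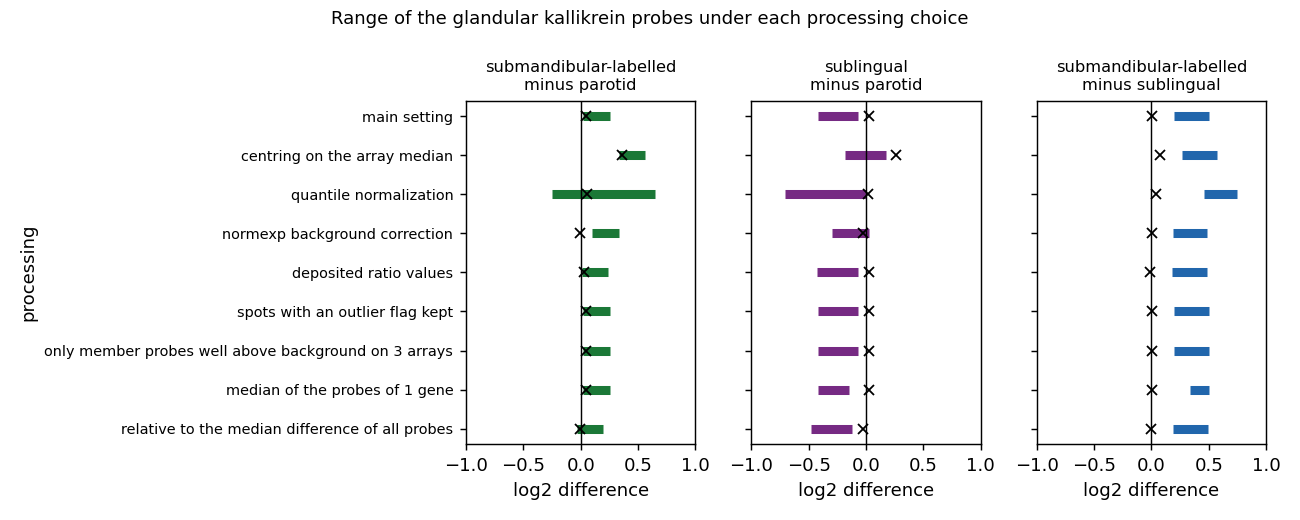
Range, as a bar, of the log2 difference over the glandular probes well above background on all 3 arrays under each processing choice, with a cross at the median of all probes. Submandibular-labelled minus sublingual stays above 0 in each row, while sublingual minus parotid crosses 0 with median centring and normexp.

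Markers of duct cells, which make kallikreins, were also higher on the submandibular-labelled array. Of 12 striated and excretory duct genes, 8 were higher on the submandibular-labelled array than on the parotid array (median difference 1.18), 8 on the sublingual array than on the parotid array (0.99) and 10 on the submandibular-labelled array than on the sublingual array (0.22). The log2 of the list's summed level was 8.19, 8.00 and 7.11 on the submandibular-labelled, sublingual and parotid arrays, and all 12 were well above background on each array. The same sum for the granular duct products was 5.46, 5.41 and 9.87, the last carried by Smr3a, an androgen-regulated gene named after the submandibular gland. Of 8 digestive enzyme genes of the pancreas, 6 were dim on each array. The part of these cells in the kallikrein levels was not tested.

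The pattern of Klk1 was also found on many probes outside the family. Of the 19886 probes well above background on all 3 arrays, 393 (1.98%) had differences within 0.1 of those of Klk1 in both pairs with the parotid array. Of these, 3 were other members. The 19886 held 6 member probes, Klk1 included, so the share was larger among the members, whose probes may cross-hybridise.

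The weak members were compared with a dim side at its own level or at its bound, whichever was higher. Where 1 side of a pair was not well above background, a probe could differ in 1 direction only. The filter thus fixed the direction for Klk8 and Klk1c10 in their pairs with the parotid array. It also did so for Klk9 and Klkb1 in both pairs with the submandibular-labelled array. Against the parotid array, 10 members could be compared on the submandibular-labelled array. Of these, 0 were at least 4-fold higher (2.45% of all 23963 probes compared) and 1 was at least 4-fold lower (2.99%). For sublingual against parotid, 0 of 10 were higher (2.55% of all probes) and 0 lower (2.63%). For submandibular-labelled against sublingual, 0 of 8 were higher (0.0734%) and 0 lower (0.147%). At 2-fold, 3 members were lower on the submandibular-labelled array than on the parotid array (13.4% of all probes were lower), 2 were lower on the sublingual array than on the parotid array (12.6%), and 1 was lower on the submandibular-labelled array than on the sublingual array (1.74%). These counts are too few to set against the background shares.

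The single 4-fold probe was that of Klk9 (chr1:94224095-94224154), with processed signals of 18.9 on the submandibular-labelled array, 28.5 on the sublingual array and 75.4 on the parotid array. It was not well above background on the submandibular-labelled array, where its level was -3.59, against -3.10 on the sublingual array and -1.30 on the parotid array. It was lower than on the parotid array by 4.89-fold (submandibular-labelled) and by 3.47-fold (sublingual). These log2 differences were -2.29 with a software error of 0.40, and -1.80 with a software error of 0.30. With normexp background correction or median centring, Klk9 no longer reached 4-fold, and its submandibular-labelled minus parotid difference ran from -2.31 to -1.01 over the settings.

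Klk8, known as neuropsin from brain and skin (chr1:94233905-94233964), read 15.1, 22.6 and 34.9 on the submandibular-labelled, sublingual and parotid arrays, and was well above background on the parotid array alone. Relative to that array it was lower by 2.03-fold (sublingual) and by at least 2.35-fold (submandibular-labelled). Its submandibular-labelled minus parotid difference ran from -1.24 to -0.45 over the settings. Klk1c10, a T-kininogen-cleaving copy of the glandular group (chr1:94380729-94380788, minus strand), read 19.0, 22.2 and 25.8. It too was well above background on the parotid array alone, and was lower by 1.66-fold (submandibular-labelled) and 1.52-fold (sublingual). Signals this close to background carried software errors of 0.23 to 0.49 on the log2 scale for these 2 genes.

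Klkb1, plasma kallikrein, a liver-made protease of the contact system, read 21.5 on the submandibular-labelled array, 51.1 on the sublingual array and 57.3 on the parotid array. It was not well above background on the first of these. There it read 3.27-fold lower than on the parotid array and 2.22-fold lower than on the sublingual array. Between the sublingual and parotid arrays it was 1.47-fold lower on the sublingual array, a log2 difference of -0.56 with a software error of 0.28. Over the settings, its submandibular-labelled minus parotid difference ran from -1.73 to -0.53, and submandibular-labelled minus sublingual from -1.17 to -0.21, the smallest with normexp.

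The other 11 members were not well above background on any array. They were Klk4, the enamel matrix protease; Klk6, a protease of brain and myelin; Klk7, which sheds the outer skin layer; Klk10, Klk11, Klk12, Klk13, Klk14 and Klk15 of the same group; and the glandular copies Klk1c9 and Klk1c12. Their signals lay between 3.95 and 14.5 (submandibular-labelled), 3.75 and 17.6 (sublingual) and 3.55 and 10.2 (parotid), where the lowest well-above-background signals were 18.2, 18.3 and 17.2. For 5 of them the scanner software had put a surrogate in place of the signal on all 3 arrays, so no level can be read. Along the chromosome, the member probes from Klk14 to Klk1c10 were dim or weak, and those well above background on all 3 arrays lay from Klk1c6 onward. This border holds for the members only. A probe described as a kallikrein fragment but outside the naming rule (chr1:94413414-94413569) lies between Klk1c10 and Klk1c6 and was well above background on all 3 arrays. Dim probes lay among the bright members too: Klk15 (chr1:94688057-94688116) lies between Klk1c3 and Klk1b3, and Klk1c9 (chr1:94582698-94582757) between Klk1c8 and Klk1.

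The partners of the kallikreins were described from lists of substrates, receptors, peptidases and inhibitors, with the brightest probe for each gene. The kininogens, from which kallikreins cut kinins, were weak. Kng1 was well above background on the submandibular-labelled array alone, at -2.62, and Kng2 stood at -2.84 and -3.05 on the submandibular-labelled and sublingual arrays and was not well above background on the parotid array. Of the kinin receptors, the constitutive B2 receptor gene Bdkrb2 read -1.43, -1.69 and -1.05 on the submandibular-labelled, sublingual and parotid arrays, and the inducible B1 receptor gene Bdkrb1 was not well above background on any. Neither list had a gene 4-fold apart, though too few genes were compared to set this against all probes. A 2nd probe of Kng2 and of Bdkrb2 was dim on all arrays.

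**Figure D5:**
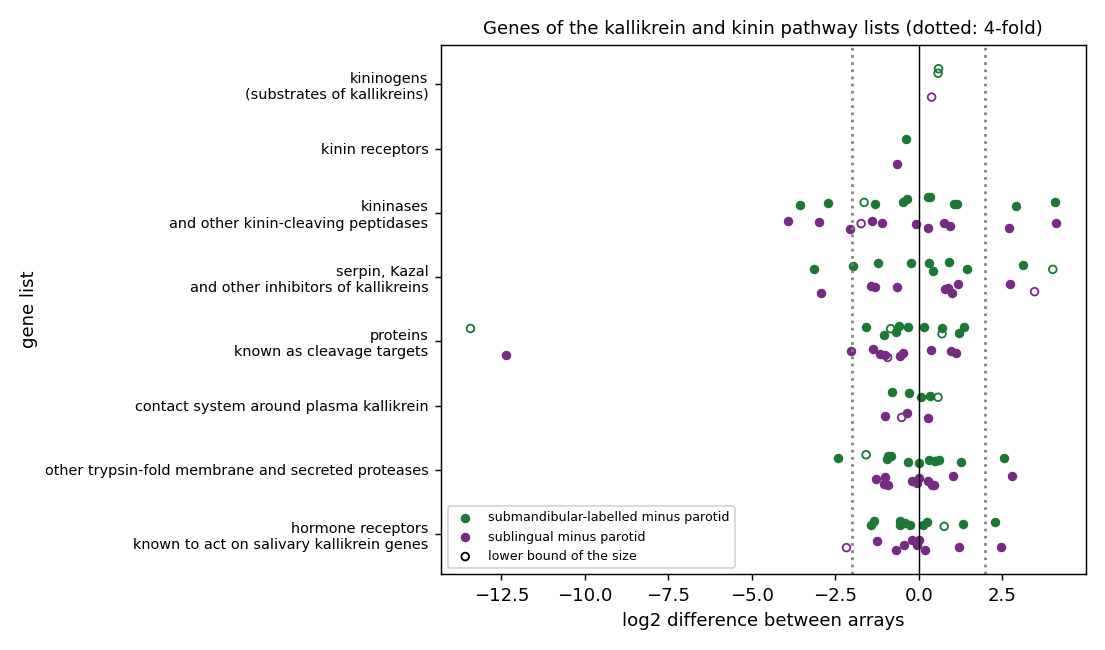
Log2 difference from the parotid array for each gene of 8 lists around kallikreins and kinins that could be compared; the upper points of each list are the submandibular-labelled array, the lower points the sublingual array, and open points are bounds. Dotted lines mark 4-fold, which genes of the peptidase list pass in both directions. Smr3a lies far to the left.

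Genes on the list of kininases and related peptidases differed in both directions, and whether each acts on kinins was not tested. Of 12 genes compared among 15 on the array, 2 were at least 4-fold higher and 2 lower on the submandibular-labelled array than on the parotid array, with a median difference of 0.29 (2.45% of all probes were that much higher and 2.99% lower). On the sublingual array 2 were higher and 3 lower, with a median of -0.07 (2.55% and 2.63% of all probes). Counting a gene only where every probe compared passed 4-fold in 1 direction left 2 higher and 1 lower on each array. Neprilysin (Mme), which cleaves bradykinin, stood at 3.52, 3.56 and -0.56 on the submandibular-labelled, sublingual and parotid arrays, 16.9-fold and 17.4-fold above the parotid array. Carboxypeptidase D (Cpd), which trims basic residues, read 4.28, 4.07 and 1.35.

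Dipeptidyl peptidase 4 (Dpp4) lay on the other side, at -0.35, -0.71 and 3.21, or 11.8-fold and 15.1-fold lower on the submandibular-labelled and sublingual arrays than on the parotid array. Its 2nd probe gave differences of -3.20 and -3.25. Aminopeptidase A (Enpep) read 0.34, 0.08 and 3.07 on its brightest probe, but its 3 probes disagreed: the differences from the parotid array were -2.73 and -2.99 on that probe, -0.04 and -0.33 on another, and at least as low as -3.26 and -3.35 on the last. Aminopeptidase N (Anpep) read 2.38, 1.63 and 3.69, with differences of -1.31 and -2.06, whereas its other probe gave 2.01 and 1.63 in the opposite direction. No direction is therefore given for Anpep.

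Among inhibitors, 10 of 18 genes could be compared with the parotid array. The submandibular-labelled array had 2 at least 4-fold higher and 1 lower, as had the sublingual array, with medians of 0.31 and 0.78. Alpha-1-antitrypsin (Serpina1) stood at 4.11, 3.74 and 0.99 on the submandibular-labelled, sublingual and parotid arrays. Spink5, whose product LEKTI inhibits skin kallikreins, read 0.58 and 0.04 on the submandibular-labelled and sublingual arrays and was not well above background on the parotid array, which set lower bounds of 16.2-fold and 11.1-fold. Its 2nd probe gave like bounds, 4.16 and 3.68 on the log2 scale.

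Serpina3n, an antichymotrypsin, read -3.09, -2.90 and 0.03, so it was 8.72-fold and 7.65-fold lower on the submandibular-labelled and sublingual arrays than on the parotid array. The protein C inhibitor gene Serpina5, a known inhibitor of tissue kallikrein, read -1.48, -0.95 and 0.48, and the hepatocyte growth factor activator inhibitor gene Spint1 read 2.96, 2.69 and 1.52. Both stayed under 4-fold.

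Of proteins known as kallikrein substrates, 12 could be compared between the submandibular-labelled and parotid arrays, with 0 at least 4-fold higher and 1 lower, and on the sublingual array 0 of 11 were higher and 2 lower (medians of -0.33 and -0.78). Smr3a was not well above background on the submandibular-labelled array and read -2.58 on the sublingual array, against 9.78 on the parotid array. The binding protein genes Igfbp5 (0.67, 0.23 and 2.25 on the submandibular-labelled, sublingual and parotid arrays) and Igfbp3 (4.37, 4.06 and 5.43) were lower than on the parotid array on each of their 2 probes, and Igfbp5 passed 4-fold on the sublingual array on 1 of them. The gamma subunit of the epithelial sodium channel, Scnn1g, read 0.27, 0.03 and -1.08.

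The contact system around plasma kallikrein had 5 genes compared for the submandibular-labelled and 4 for the sublingual array against the parotid array, and 0 were 4-fold apart, with medians of -0.11 and -0.36. The C1 inhibitor gene Serping1 read 4.67, 4.60 and 4.96 on the submandibular-labelled, sublingual and parotid arrays on its brightest probe. Its 2nd probe gave differences from the parotid array of -1.96 and -2.26. Complement C1s read 1.94, 1.73 and 2.74. Urokinase (Plau) was 1.25-fold and 1.20-fold higher than on the parotid array, and coagulation factor XII (F12) read -3.16 on the submandibular-labelled and -3.22 on the parotid array.

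Of 13 other trypsin-fold and processing proteases compared, Prss23 was 5.88-fold and 6.94-fold higher on the submandibular-labelled and sublingual arrays than on the parotid array, at 5.27, 5.51 and 2.71. Mast cell chymase (Cma1) read -1.95, -0.79 and 0.48, lower than on the parotid array by 5.39-fold (submandibular-labelled) and 2.41-fold (sublingual), though its 2nd probe gave -1.77 on the log2 scale for submandibular-labelled minus parotid, under 4-fold. The proprotein convertase Furin read 2.30, 2.05 and 1.02, and trypsin 2 (Prss2) -1.35, -1.44 and -0.41.

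Of receptors for signals that act on salivary kallikreins, 1 was at least 4-fold higher and 0 lower on the submandibular-labelled than the parotid array. On the sublingual array 1 was higher and 1 lower. Of all probes, 2.45% were that much higher and 2.99% lower in the first pair, and 2.55% and 2.63% in the second. Of 11 genes compared for the submandibular-labelled and 10 for the sublingual array, the muscarinic receptor gene Chrm3 was 4.84-fold and 5.51-fold higher than on the parotid array, at 4.62, 4.80 and 2.34 on the submandibular-labelled, sublingual and parotid arrays. The prolactin receptor gene Prlr read -2.82 on the submandibular-labelled array, was not well above background on the sublingual array and read -1.38 on the parotid array. It was lower than on the parotid array by 2.71-fold (submandibular-labelled) and 4.48-fold (sublingual). The mineralocorticoid receptor gene Nr3c2 read 2.31, 2.19 and 0.97, and the beta-1 adrenergic receptor gene Adrb1 -1.79, -1.69 and -0.45. For submandibular-labelled against sublingual, 0 genes of these 8 lists were 4-fold apart. Of all probes, only 0.0734% were that much higher and 0.147% lower, so this count says little about the lists.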

How the data were processed

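Intensity values were deposited as made by Agilent Feature Extraction 10.1.1.1 (protocol GE1-v5_10_Apr08, array design 014879, coordinates in rn4), per the file headers, with low signals replaced by surrogates. Per the labels, 500 ng of total RNA per gland was labelled with Cy3. The flags of well above background, saturation and outliers are other deposited columns of 0 or 1. The value table of the authors gives a linear ratio for each spot. It was found to be the processed signal over a constant of the array (236, 250 and 190 for the submandibular-labelled, sublingual and parotid arrays), with column medians of 0.122, 0.128 and 0.152. No gene was centred there, and the steps behind it are not given in these sources.

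Levels were computed as log2 of processed signal less the 75th percentile of its array (signals of 228, 244 and 186). Control spots were dropped, as were those flagged as outliers (79, 73 and 68), and repeat spots were averaged. A fold with a dim side was taken against the higher of 2 levels. These were the lowest well-above-background level on that array (-3.65, -3.74 and -3.43) and the probe's own level. Where the own level was higher, the fold is the measured difference and no bound. The software error is the file's error per spot. Repeat-spot SDs come from 168, 171 and 178 probes with at least 3 spots. Of the members, 9 probes were matched to RefSeq (GRCr8, names and promoters) by accession, 9 by symbol and 3 by older symbols, 2 of them through their description.

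All members are accounted for. From each partner list the text names the 4 genes with the largest difference among those above background on both arrays, plus any at least 4-fold apart. Some genes of the lists are not reported here. Members and lists were chosen with earlier results of these data known. Gland and slide position cannot be told apart. The counting step was tested on simulated data with changes planted only in probes far above background. Folds with a dim side were thus not tested by the planted changes. Alternatives were median centring, quantile normalization, normexp (offset 50, limma 3.58.1, R 4.3.3), the deposited ratio, outlier spots kept, only probes above background on all 3 arrays, the median probe per gene, differences relative to the median of all probes, and thresholds of 2-fold and 10-fold. Counting a list gene only where each of its probes passed was added after seeing the data. Python 3.11.15, numpy 2.4.6, pandas 2.3.3 and matplotlib 3.10.9 were used.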

Additional observations from a re-analysis of the deposited data

How the results depend on the processing

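The medians of the members moved with the scaling. For submandibular-labelled minus parotid the median of 0.19 became 0.50 with median centring and 0.34 with quantile normalization; for sublingual minus parotid, -0.24 became -0.00059 and -0.44; for submandibular-labelled minus sublingual, 0.41 became 0.67 with quantile normalization. Median centring also put the median of all probes at 0.36 and 0.26 in the pairs with the parotid array. The count of 4-fold members, 1 for submandibular-labelled against parotid, became 0 with median centring, with normexp, with only probes above background on all 3 arrays (fewer probes enter) and at 10-fold, and 3 at 2-fold. The counts of 0 became 2 at 2-fold for sublingual against parotid and 1 for submandibular-labelled against sublingual. Of 28 differences of single probes, 20 moved with median centring, 20 with quantile normalization and 10 with normexp by more than the repeat-spot SD. The cause of these shifts was not tested. With the deposited ratio or with outlier spots kept, 0 moved. These 2 settings could hardly move a member. The ratio is the processed signal over a constant of the array, and no member spot had an outlier flag. Signal near background limits Klk9, Klk8, Klk1c10 and Klkb1, which were not well above background on at least 1 array. No paired analysis was possible because each gland has 1 array and no result comes from a test.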

Other observations

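Other probes in the same cluster are described in the files as kallikrein or tonin but were not taken by the family's naming rule, and their values were looked at after those of the members. A probe described as a kallikrein fragment (chr1:94413414-94413569 in rn4, minus strand) had levels of 6.69, 6.23 and 6.44 on the submandibular-labelled, sublingual and parotid arrays. It followed the order of the bright glandular probes, with differences of 0.25 for submandibular-labelled minus parotid, -0.21 for sublingual minus parotid and 0.46 for submandibular-labelled minus sublingual. Klk1c2, the gene of tonin, an enzyme that forms angiotensin II in the rat (chr1:94472298-94472357, minus strand), read -1.50, -2.27 and -1.49. It was 1.71-fold higher on the submandibular-labelled array than on the sublingual array and differed by -0.01 for submandibular-labelled minus parotid and by -0.78 for sublingual minus parotid. A probe described as a precursor of kallikrein 1 (chr1:94537548-94538235) read 2.03, 1.79 and 1.59, so here the sublingual array lay above the parotid array by 0.21, unlike the members. A probe described as similar to kallikrein 5 (chr1:94278372-94278431) was not well above background on any array, and neither was that of the kallikrein-binding protein gene on chromosome 6.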
